A study of Mus musculus with 16 samples.

Results

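The genes described here encode the machinery that tags proteins with ubiquitin, removes the tag and degrades tagged proteins. They were chosen by gene symbol, and the symbol rule itself uses no measured value: every symbol starting with Psma, Psmb, Psmc, Psmd or Psme (proteasome), Ube2 (ubiquitin-conjugating enzymes) or Usp followed by a digit (ubiquitin-specific proteases). Of 9669 genes with a probe of their own, 101 met this rule, namely 39 proteasome symbols, 25 Ube2 symbols and 37 Usp symbols, measured by 126 probes. The test covered 93 of them (37, 23 and 33), out of 9047 genes tested. Two-colour cDNA microarrays were hybridised with kidney and liver RNA of C3HeB/FeJ mice, which are inbred; all animals were wildtype males aged 105 ± 5 days. The left kidney of mice 1, 2 and 3 was hybridised on 7 arrays (3, 3 and 1) together with pooled liver RNA of 5 animals. Their dorsal liver lobe was hybridised on 9 arrays (3 per mouse) together with pooled kidney RNA of 5 animals. The labels name no treatment or mutation, so the comparison is kidney against liver in adult wildtype males.

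Ubiquitin is attached to proteins by a relay of an activating enzyme (E1), a conjugating enzyme (E2) and a ligase (E3). Proteins carrying ubiquitin chains are unfolded and cut by the proteasome, in which a 20S barrel of alpha and beta rings is capped by a 19S particle with a ring of ATPases and a set of non-ATPase subunits, while deubiquitinases such as the Usp proteases take the chains off again. Interferons exchange the catalytic beta subunits Psmb5, Psmb6 and Psmb7 for Psmb8, Psmb9 and Psmb10, which yields the immunoproteasome, and induce the activator PA28 (Psme1 and Psme2). Kidney and liver both turn over large amounts of protein, and the system is active in every nucleated cell.

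All values are log2 ratios of kidney over liver with the median probe of each array set to 0, and they compare organs within a gene, not levels between genes. Which channel was divided by which is not given in the labels. The deposited ratios were read as pool over single sample, which opposes the order in the array titles and was chosen because it puts known organ markers on the side of their organ: 12 of 12 hepatocyte genes were higher in liver (median -6.47) and 8 of 8 proximal tubule genes were higher in kidney (median 5.61). With the title order, kidney and liver would be exchanged in every sentence, and sizes and tests would stay. Repeated arrays of a mouse's organ carry one RNA and were averaged, which gave 6 averages per gene (3 mice on kidney arrays, 3 on liver arrays), and a gene was called at a Benjamini-Hochberg adjusted p under 0.05 in limma. The RNA came from a kidney or a liver lobe and not from single cell types. A difference in the share of a cell type and a difference in RNA per cell therefore cannot be told apart.

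The 6 arrays of mouse 2 stood apart. Turned to kidney over liver, their deposited medians lay between -1.49 and -1.19, against absolute medians of at most 0.00267 on the other 10 arrays. The offset depended on the signal: probes with few exactly recurring values, taken as bright, had deposited medians between -0.15 and 0.09 on these arrays, and dim probes had medians between -1.72 and -1.45. Setting the array median to 0 therefore moved the bright probes of mouse 2 towards kidney. Over all 9047 genes the median of the estimates was -0.01 after centring and -0.48 as deposited. Results that rest on mouse 2 are given with and without it, and also with its arrays aligned to the other mice within bins of signal. Kidney and liver averages of a mouse deviated together, so the SE and p-values of the fit tend to be too small. A fit that pairs a mouse's organs (the mouse block, a replicate block on the mouse number) is given where it ends a call. Aligning moves mouse 2 towards the other mice, so part of their agreement in the aligned fit is built in. The p-values of the aligned fit tend to be too small for this reason as well.

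Across the 3 groups, members differed between kidney and liver about as often as genes in general. Of all genes tested, 31.8% were called, 19.3% higher in kidney and 12.4% higher in liver. Among the proteasome symbols 13 of 37 were called (35.1%), 9 higher in kidney and 4 higher in liver. Among the Ube2 symbols 10 of 23 were called (43.5%), 7 higher in kidney and 3 in liver, and among the Usp symbols 10 of 33 (30.3%), 8 higher in kidney and 2 in liver. The median log2 difference was 0.24 for the proteasome, 0.01 for Ube2 and 0.16 for Usp, beside -0.01 for all genes. As deposited, without centring, these medians were -0.22, -0.44 and -0.32 beside -0.48 for all genes, and with arrays centred on bright probes they were -0.33, -0.56 and -0.44 beside -0.60, so the sign of a group median turned with the centring while each group stayed above all genes. The kidney side held 69.2% of the proteasome calls after centring on all probes and 20% as deposited, against 60.9% and 38.6% for all genes. It held 70% and 75% (3 of 4) of the Ube2 calls, and 80% and 100% (2 of 2) of the Usp calls.

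Without mouse 2 the proteasome median was close to 0. Over the 32 proteasome genes that could be tested without this mouse, the median was 0.24 with all mice, 0.18 with mouse 2 aligned by signal and 0.04 without mouse 2, where 5 had more transcript in kidney and 5 more in liver by the test. The 29 Usp genes had medians of 0.21, 0.20 and 0.13 in the same order, and the 18 Ube2 genes 0.28, 0.21 and 0.06. Of 7575 genes tested without mouse 2, 35.9% were called, 20.2% towards kidney and 15.7% towards liver. Of the 33 members called with all mice, 30 could be tested without mouse 2 and 9 of these lost the call (Psma6, Psmc6, Psmd4, Psmd11, Ube2d-ps, Ube2u, Usp15, Usp24 and Usp35), while 6 others gained one. With mouse 2 aligned, 15 proteasome, 10 Ube2 and 11 Usp members were called, beside 37.3% of all genes. In all, 21 members were called alike with all mice, without mouse 2 and with mouse 2 aligned. Of these, 15 were higher in kidney and 6 in liver, beside 18.2% and 10.4% of all 7575 genes. The aligned fit adds no independent check to these counts, since aligning moves mouse 2 towards the other mice.

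**Figure D1:**
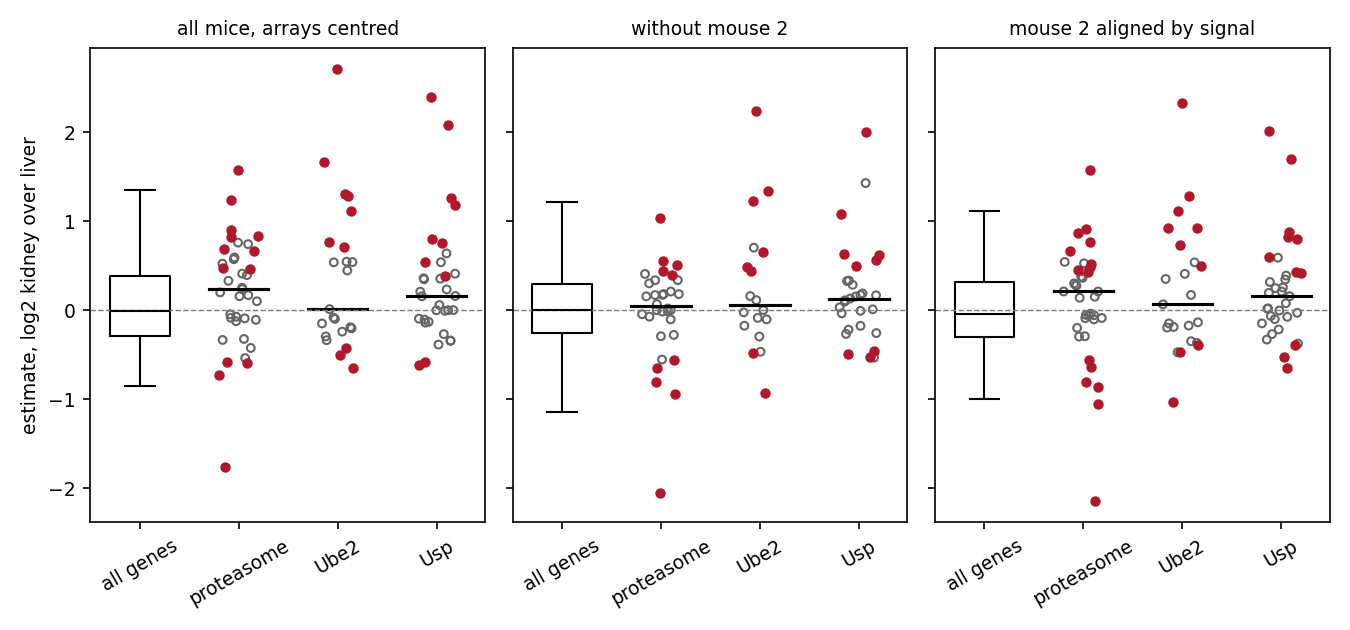
Estimated log2 kidney over liver for the tested members of each group (points; filled where called at an adjusted p under 0.05) beside all genes tested (box, quartiles; whiskers, percentiles 5 to 95; the thick bar is the group median) in 3 fits. The proteasome median falls from 0.24 to 0.04 without mouse 2, while Ube2l6 and Usp8 at the top and Psmb10 at the bottom keep their places.

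The mouse block was stricter. With it, 16.7% of all genes were called, and 4 proteasome, 3 Ube2 and 5 Usp members (Psmb10, Psmc5, Psmd2, Psmd10, Ube2h, Ube2l6, Ube2n, Usp3, Usp8, Usp20, Usp24 and Usp36). As deposited, 14.2% of all genes were called (5.47% higher in kidney and 8.71% in liver), and 5, 4 and 2 members of the 3 groups, of which 6 lay on the kidney side and 5 on the liver side. Of the 33 members called with centring, 10 were called as deposited too (Psmb10, Psmc3ip, Psmc5, Psmd2, Ube2d3, Ube2j1, Ube2l6, Ube2n, Usp8 and Usp24), and the other 23 were not. Usp53 was the 1 called member whose sign turned as deposited. With arrays centred on bright probes, 37.5% of all genes were called (6.9% and 30.6%), and 2 proteasome members were then higher in kidney and 10 in liver. Without mouse 1, 15.5% of genes were called and 2, 3 and 4 members, and without mouse 3, 20.7% of genes and 9, 7 and 6 members. Among genes with bright probes 66.5% were called, and 6 of 10 proteasome, 7 of 8 Ube2 and 5 of 6 Usp members. Psmb10, Ube2l6, Ube2n and Usp8 were called in the same direction in each alternative fit that was run, and Psmc5 in the fits as deposited, without mouse 2, aligned and blocked. These 5 members and their neighbours by role are described next.

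Among the interferon-inducible proteasome genes, Psmb10 was the one called with all mice after centring, and it was higher in liver. Psmb10, the inducible trypsin-like catalytic subunit, read -2.22, -0.96 and -1.86 in mice 1, 2 and 3 on the kidney arrays and -2.28, -1.38 and -1.84 on the liver arrays. All 6 averages lay below 0, and those of mouse 2 were the closest to it. The fit gave -1.76 ± 0.19 (SE, n = 6 averages of 3 mice), 3.38-fold higher in liver, and 4.14-fold without mouse 2. The adjusted p was 0.000264, and 0.00273 with the mouse block. Its constitutive partner Psmb7 gave 0.24 ± 0.17 and was not called (adjusted p = 0.31), with values between -0.26 and 0.83.

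The other inducible catalytic subunits gave no call of their own. Psmb8, the inducible chymotrypsin-like subunit, read -0.30 and 0.90 in mice 1 and 2 on the kidney arrays and -0.26, 0.93 and -0.56 in mice 1, 2 and 3 on the liver arrays. Mouse 2 was positive and the others negative, and the estimate of 0.17 ± 0.27 was not called (adjusted p = 0.652). Its partner Psmb5 gave 0.16 ± 0.15, and Psmb6, the partner of Psmb9, gave -0.12 ± 0.14, neither of them called. Psmb9 was represented only by a probe whose annotation also names Tap1, which read -0.66 (adjusted p = 0.00741) and cannot be given to either gene.

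Both PA28 subunits were read on opposite sides by the mice. Psme1 read -0.47, 0.22 and -1.26 in mice 1, 2 and 3 on the kidney arrays and -0.80, 0.33 and -1.25 on the liver arrays. With all mice and centred arrays its -0.54 ± 0.25 was not called (adjusted p = 0.127). It was higher in liver without mouse 2 (-0.94, adjusted p = 0.00457) and with mouse 2 aligned (-0.86, adjusted p = 0.00129). As deposited, with all mice, it was higher in liver too (-0.99, adjusted p = 0.0168). Psme2 read 0.63, -0.74 and 0.31 on the kidney arrays and 0.06, -0.75 and -0.16 on the liver arrays, in the same order. Mouse 2 was thus the highest of the mice for Psme1 and the lowest for Psme2, whose probe was dim (88.9% recurring values) where that of Psme1 was bright (10%), and neither organ had more Psme2 by the test (-0.11 ± 0.20, adjusted p = 0.698).

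Genes known to be induced by interferon and leukocyte markers were read on the same arrays. Of 8 interferon-induced genes tested, 3 were higher in liver and 0 in kidney: the peptide transporter Tap1 (-2.77), beta-2 microglobulin B2m (-2.69) and the transcription factor Irf7 (-0.97). Ifit3 (0.01), Oas1a (-0.22), Mx2 (-0.12), Irf1 (-0.28) and Ifi35 (0.26) were not called. Of 14 leukocyte and macrophage markers tested, 4 were higher in kidney (H2-Aa, H2-Eb1, C1qb and Cd74, from 0.71 to 1.35; Cd74 was not called with mouse 2 aligned, at 0.39 and an adjusted p of 0.275) and 3 in liver (Tyrobp at -2.47, the Kupffer cell lectin Clec4f at -1.46 and Coro1a at -0.43). C1qa, a complement subunit of macrophages, was not called with all mice (-0.67, adjusted p = 0.0565) but was higher in liver without mouse 2 (-1.07) and with it aligned (-0.70, adjusted p = 0.0252). As deposited, 1 of the 14 markers was higher in kidney and 3 in liver. Their part in the difference of Psmb10 was not tested.

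Promoter letters are shown for 3 members that interferons are known to induce, Psmb10, Psmb8 and Ube2l6, because Psmb10 was higher in liver, Ube2l6 was higher in kidney and Psmb8 was not called. Each is the stretch of 250 bases before the annotated start (RefSeq, GRCm38.p6), on the coding strand, with motif letters in capitals: chr8:105938393-105938642, minus strand, for Psmb10, chr17:34197945-34198194, plus strand, for Psmb8, and chr2:84798578-84798827, plus strand, for Ube2l6.
Psmb10: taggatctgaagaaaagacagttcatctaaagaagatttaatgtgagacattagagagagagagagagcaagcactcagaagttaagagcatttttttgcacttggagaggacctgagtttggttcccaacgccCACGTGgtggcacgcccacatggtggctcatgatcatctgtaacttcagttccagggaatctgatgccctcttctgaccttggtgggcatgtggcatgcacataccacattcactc
Psmb8: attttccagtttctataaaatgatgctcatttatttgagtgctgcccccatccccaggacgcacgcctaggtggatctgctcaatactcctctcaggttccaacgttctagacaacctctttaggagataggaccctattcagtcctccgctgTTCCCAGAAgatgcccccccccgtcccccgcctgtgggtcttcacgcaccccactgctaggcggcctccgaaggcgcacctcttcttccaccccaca
Ube2l6: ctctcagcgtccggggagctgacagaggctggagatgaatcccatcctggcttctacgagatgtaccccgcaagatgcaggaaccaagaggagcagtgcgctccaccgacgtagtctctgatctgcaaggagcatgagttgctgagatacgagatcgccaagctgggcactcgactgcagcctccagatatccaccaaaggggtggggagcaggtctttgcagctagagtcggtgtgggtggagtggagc
Psmb8 holds letters of a gamma-activated site (TTCNNNGAA) that end at position -89 from the start, Psmb10 holds an E-box (CACGTG) that ends at position -111, and Ube2l6 holds none of the motifs searched.

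Windows were found for 84 of the 101 members (95 windows), and both strands were searched. A gamma-activated site was in the windows of 5 members (Psmb8, Ube2d3, Ube2z, Usp26 and Usp50) and in 7.01% of all 32817 windows. The core of an interferon-stimulated response element (GAAA, any 2 bases, GAAA) was in those of Psmb3 and Psmd4 and in 2.97% of all windows. The core of an antioxidant response element (TGACNNNGC) was in those of 11 members and in 10.2% of all windows, and the E-box in those of 9 members and in 6.02%. The motifs were counted separately and do not share letters in the 3 windows printed. The members that hold a motif include genes higher in kidney, genes higher in liver and genes that were not called.

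In the 20S barrel of the proteasome most subunits were not called. Of 13 alpha and beta ring subunits tested, 2 were higher in kidney and none was higher in liver. Their median was 0.33. In 12 of the 13, mouse 2 read above the other measured mice on both array kinds, and the median was 0.04 without mouse 2 and 0.28 with it aligned. The median over the 13 subunits was 0.08, 0.89 and 0.09 in mice 1, 2 and 3 on the kidney arrays and 0.13, 0.83 and -0.03 on the liver arrays. As deposited, the medians of mouse 2 were -0.48 and -0.51. The barrel of mouse 2 thus lay above that of the other mice after centring and below it before.

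Psmb3, a structural subunit of the beta ring, read 0.50, 1.28 and 0.56 in mice 1, 2 and 3 on the kidney arrays and 0.50, 1.27 and 0.04 on the liver arrays. All averages were above 0, and the estimate of 0.69 ± 0.19 (adjusted p = 0.0237) held without mouse 2 (0.40, adjusted p = 0.0425) but not with the mouse block (adjusted p = 0.0926). Psma6, a subunit of the alpha ring, gave 0.48 ± 0.14 (adjusted p = 0.0358), and 0.30 without mouse 2 (adjusted p = 0.084) and an adjusted p of 0.165 with the block. Psmb1, Psmb2 and Psmb4, further structural beta subunits, had estimates of 0.76, 0.74 and 0.59 with SE between 0.28 and 0.32 and were not called. Each of them read between 1.49 and 2.15 in mouse 2 and between -0.25 and 0.50 in mice 1 and 3. Psma4 had the lowest estimate of the barrel, -0.42 ± 0.17, was not called without mouse 2 either, and was called higher in liver with mouse 2 aligned (-0.64).

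The ATPases at the base of the 19S particle, which unfold substrates and feed them into the barrel, split between the organs. Of 6 tested, Psmc4 and Psmc6 were higher in kidney and Psmc5 was higher in liver, with a median of 0.03. Psmc5 read -0.77, -1.08 and -1.13 in mice 1, 2 and 3 on the kidney arrays and -0.58, -0.72 and -0.10 on the liver arrays. All averages were below 0, and mouse 2 lay between the others on the kidney arrays and was the lowest on the liver arrays. The estimate was -0.73 ± 0.13, 1.66-fold higher in liver (adjusted p = 0.00399; 0.0342 with the mouse block).

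Psmc4 read 0.95, 1.68 and 0.64 on the kidney arrays and 0.58, 1.66 and -0.12 on the liver arrays, in the order of the mice. Its estimate of 0.90 ± 0.24 (adjusted p = 0.0211) was 0.51 without mouse 2 (adjusted p = 0.0352) and lost the call with the block (adjusted p = 0.0694). Psmc6 read 1.82 and 1.86 in mouse 2 and between 0.12 and 0.68 in the others. Its 0.84 ± 0.27 (adjusted p = 0.048) fell to 0.34 without mouse 2 (adjusted p = 0.0776), with an adjusted p of 0.127 with the block. The probes of Psmc1 disagreed: one read -0.56 (adjusted p = 0.0122) and the other 0.76 (adjusted p = 0.0495), so the gene's mean of 0.10 describes neither.

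Among the non-ATPase subunits of the 19S particle, 3 of 8 were higher in kidney and 0 in liver; the median was 0.43, with estimates from -0.33 to 1.58. Psmd2, the scaffold that docks ubiquitin carriers and substrates, read 1.70 and 2.07 in mice 1 and 2 on the kidney arrays, without a value in mouse 3, and 1.17, 1.88 and 0.77 on the liver arrays. Every measured average was above 0, and the estimate was 1.58 ± 0.19, 2.99-fold higher in kidney (adjusted p = 0.000796; 0.00648 with the block). A further probe, annotated to both Psmd2 and Gm5422, read -0.14 (adjusted p = 0.64), so the difference rests on a single probe. With mouse 3 measured on 1 kidney array only, the gene could not be tested without mouse 2.

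Psmd11, a subunit of the 19S lid, gave 0.66 ± 0.18 (adjusted p = 0.0251) and Psmd4, a receptor for ubiquitin chains, gave 0.46 ± 0.13 (adjusted p = 0.0329). Both lost the call without mouse 2 (adjusted p = 0.0508 and 0.0761) and with the mouse block (adjusted p = 0.0968 and 0.156). The probes of Psmd11 read -0.13 and 1.45. Psmd14, the deubiquitinase of the lid, just missed with all mice (0.41 ± 0.14, adjusted p = 0.0525) and was higher in kidney without mouse 2 (0.55, adjusted p = 0.0142), but not called with mouse 2 aligned (0.28, adjusted p = 0.225) or as deposited (-0.04). Psmd1 had the widest spread, with -2.16 in mouse 2 on the liver arrays and values between -0.21 and 0.97 elsewhere.

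The assembly chaperone Psmd10, also known as the oncoprotein gankyrin, was higher in kidney in each mouse. It read 1.14, 1.86 and 1.06 in mice 1, 2 and 3 on the kidney arrays and 1.18, 1.40 and 0.76 on the liver arrays. The lowest average was well above 0, and the estimate of 1.23 ± 0.16 was 2.35-fold (adjusted p = 0.00056; 0.00702 with the block; 1.03 without mouse 2). As deposited it was 0.78 with an adjusted p of 0.0615. Psmd5, another assembly chaperone, lay between 0.13 and 0.27 in every average and was not called (0.20 ± 0.11).

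The activators that interferon does not induce were called in opposite directions with all mice after centring. Psme3, the nuclear activator PA28 gamma, read -0.50, -0.49 and -0.71 in mice 1, 2 and 3 on the kidney arrays and -0.79, -0.78 and -0.26 on the liver arrays. All lay below 0, and the estimate was -0.59 ± 0.13 (adjusted p = 0.00907), with an adjusted p of 0.0668 with the mouse block. Psme4, the activator PA200, read 0.57 and 1.25 in mice 1 and 2 on the kidney arrays and 0.83, 0.79 and 0.59 in mice 1, 2 and 3 on the liver arrays. All lay above 0, and 0.83 ± 0.16 was called (adjusted p = 0.00663, and 0.0598 with the block). Without a value in mouse 3 on the kidney arrays, Psme4 could not be tested without mouse 2. As deposited neither activator was called (Psme3 -1.04, adjusted p = 0.0594, and Psme4 0.26, adjusted p = 0.5). Of the genes that share only the prefix, Psmc3ip, a partner of the meiotic recombinases, was higher in liver (-0.59, adjusted p = 0.0198; 0.103 with the block), and Psme3ip1 was not called.

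**Figure D2:**
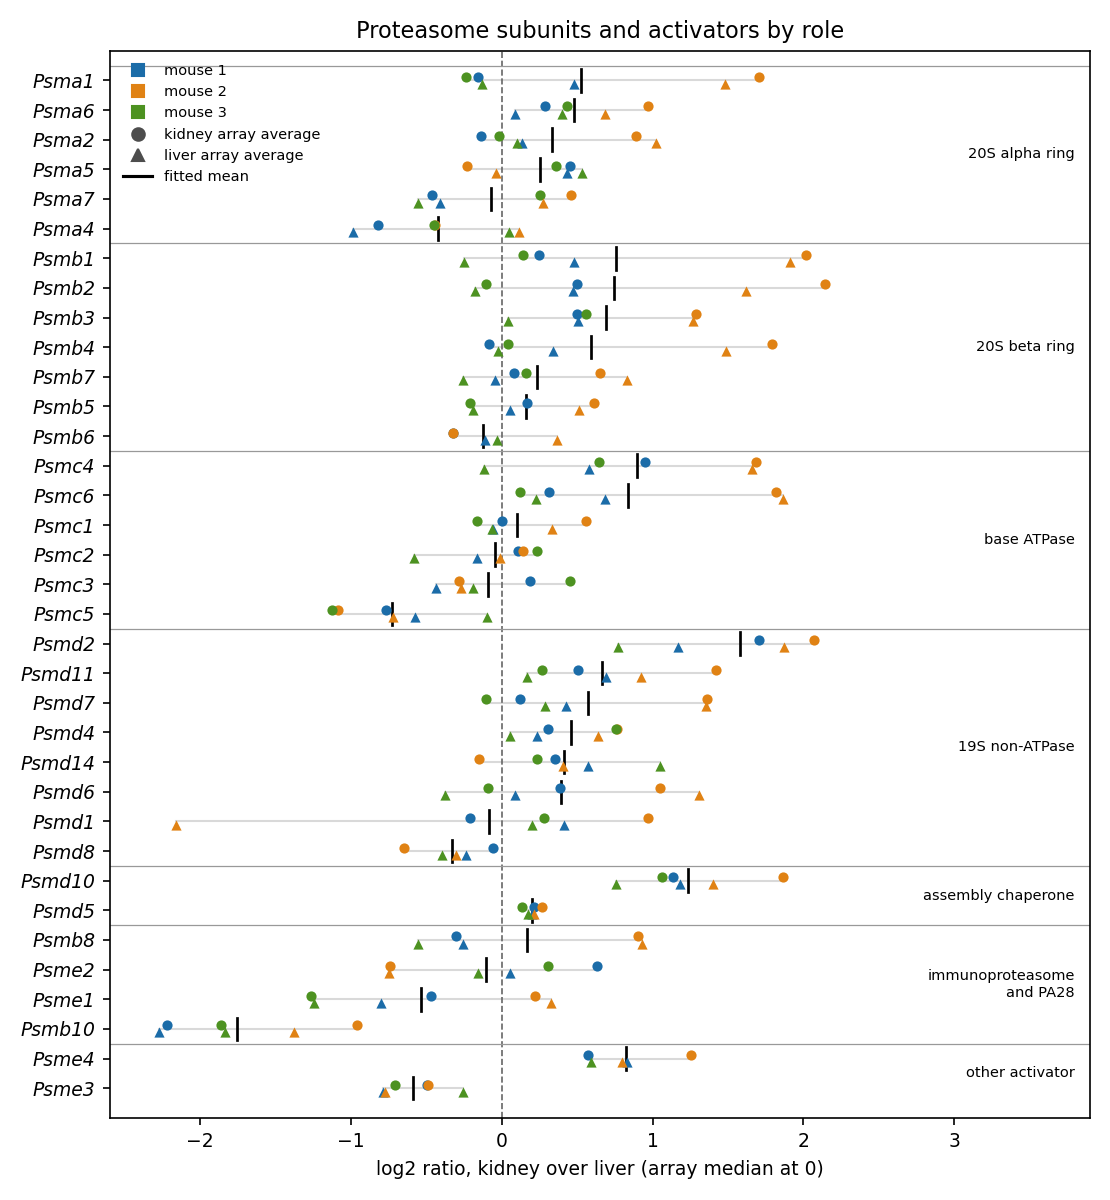
Log2 kidney over liver of the tested proteasome subunits, chaperones and activators by role; circles are kidney array averages, triangles liver array averages, colours mice 1 to 3, and the black bar is the fitted mean. Mouse 2 lies to the right of the others for most 20S subunits, with 2.02 and 1.91 for Psmb1, while Psmc5 and Psme3 lie below 0 and Psmb10 far below it in every average.

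Among the conjugating enzymes, Ube2l6 had the largest organ difference of all members tested. Ube2l6, the E2 for the interferon-induced modifier ISG15, read 2.34, 3.70 and 1.91 in mice 1, 2 and 3 on the kidney arrays and 2.52, 3.59 and 2.17 on the liver arrays. Mouse 2 read higher than the others on both array kinds, and none of the averages came near 0. The estimate was 2.71 ± 0.26, 6.52-fold higher in kidney (adjusted p = 0.000136; 0.00108 with the block), and 4.71-fold without mouse 2. The single arrays lay between 1.91 and 3.78, with a pooled SD of 0.11 between hybridisations of the same RNA. Its direction opposed those of Tap1, B2m and Psmb10, which interferon induces as well.

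Ube2n, which builds the ubiquitin chains used in inflammatory signalling and DNA repair, read 0.89, 2.70 and 1.39 in mice 1, 2 and 3 on the kidney arrays and 1.42, 1.91 and 1.65 on the liver arrays. It was 3.16-fold higher in kidney (1.66 ± 0.22, adjusted p = 0.000784; 0.00417 with the block), and 2.53-fold without mouse 2. Its catalytically inactive partner Ube2v1 read 1.31 and 1.47 in mouse 2 and between -0.13 and 0.33 in the others. At 0.54 ± 0.24 the partner was not called, and it gave 0.11 without mouse 2.

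All 3 tested symbols of the Ube2d family, whose enzymes are E2s that work with many ligases, were higher in kidney, among them a pseudogene symbol. Ube2d3 read 0.47, 2.59 and 0.42 on the kidney arrays and 0.99, 2.68 and 0.71 on the liver arrays, in the order of the mice. Its 1.31 ± 0.34 (adjusted p = 0.0212) was 0.65 without mouse 2 (adjusted p = 0.00445), 2.48-fold against 1.57-fold, and it lost the call with the block (adjusted p = 0.06). Ube2d1 gave 0.71 ± 0.17 (adjusted p = 0.0152), 0.44 without mouse 2 (adjusted p = 0.0195) and an adjusted p of 0.076 with the block. The pseudogene symbol Ube2d-ps read 1.71, 2.06 and 0.09 in mice 1, 2 and 3 on the kidney arrays. On the liver arrays it read 0.83, 1.82 and 0.18, so mouse 3 was near 0 on both kinds. Its estimate was 1.12 ± 0.29 (adjusted p = 0.0201, and 0.0583 with the block). Ube2d-ps lost the call without mouse 2 (0.70, adjusted p = 0.0797) and had probes at 1.99 and -0.02. These genes are close relatives, and how far a cDNA probe of one also bound transcripts of another was not tested.

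Ube2h, an E2 that serves a multi-subunit ligase known from red blood cell maturation, read between 0.78 and 2.16 in the 6 averages. Mouse 3 gave both extremes, 2.16 on its only kidney array and 0.78 on its liver arrays. The estimate of Ube2h was 1.29 ± 0.18, 2.44-fold higher in kidney (adjusted p = 0.000948, and 0.00427 with the block). It held without mouse 2 (1.22), a fit that includes this kidney array, but not as deposited (0.84, adjusted p = 0.101). It rested on a single probe at 2.11, while the other probe read 0.18 (adjusted p = 0.544). Of the E2s that serve the anaphase-promoting complex in mitosis, Ube2s was higher in kidney (0.77 ± 0.18, adjusted p = 0.0134; 0.0635 with the block) and held without mouse 2 (0.48, adjusted p = 0.0136). Ube2c, the other one, gave -0.34 ± 0.21 and was not called. Of 14 proliferation genes tested, 1 was higher in kidney (Ccna2, 0.59) and 0 in liver.

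Fewer E2s were higher in liver, and the clearest was the membrane-bound Ube2j1, which acts in the degradation of misfolded proteins at the endoplasmic reticulum. Ube2j1 read -1.19, -0.34 and -1.21 in mice 1, 2 and 3 on the kidney arrays and -0.67, 0.14 and -0.65 on the liver arrays. Mouse 2 lay above the others, and the estimate of -0.65 ± 0.17 (adjusted p = 0.0231; 0.101 with the block) was -0.93 without it (adjusted p = 0.000633) and -1.10 as deposited (adjusted p = 0.00886). The other E2s of this pathway, Ube2g2 (-0.10) and Ube2j2 (-0.15), were not called. Ube2o, a large enzyme that combines E2 and E3 activity, gave -0.42 ± 0.13 (adjusted p = 0.0482; 0.251 with the block; 0.0569 with mouse 2 aligned). Ube2u gave -0.50 ± 0.15 (adjusted p = 0.0327), with adjusted p-values of 0.0696 without mouse 2 and 0.141 with the block. The E2 for NEDD8, Ube2f, was not called (-0.19 ± 0.18).

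Ube2l3, the closest relative of Ube2l6 by name, showed no such difference, with 4 probes between -0.43 and 0.48 and a mean of -0.08 ± 0.11. Only the probe at 0.48 was called (adjusted p = 0.023). The remaining E2s ranged from -0.29 (Ube2z) to 0.55 (Ube2b) and were not called with all mice. Ube2z was called higher in liver without mouse 2 (-0.48, adjusted p = 0.0146), and its probes read -0.56 and 0.09.

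Among the deubiquitinases, Usp8 stood out on the kidney side. Usp8, which acts on endosomes and there controls the fate of internalised receptors, read 1.86, 3.22 and 2.48 in mice 1, 2 and 3 on the kidney arrays and 1.75, 3.13 and 1.93 on the liver arrays. The lowest average was 1.75, and mouse 2 was highest on both array kinds. The estimate of 2.40 ± 0.23 was 5.26-fold higher in kidney (adjusted p = 0.000128; 0.00113 with the block), and 4.01-fold without mouse 2.

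Usp24 showed a different pattern, with mouse 1 apart. It read -0.11, 3.12 and 2.47 in mice 1, 2 and 3 on the kidney arrays and 0.53, 3.66 and 2.83 on the liver arrays. Mice 2 and 3 were thus far above 0 and mouse 1 near it on both array kinds, and the SD between mice was 1.67. The estimate of 2.08 ± 0.48, or 4.23-fold (adjusted p = 0.0126), was 1.43 and no longer called without mouse 2 (adjusted p = 0.0612), 2.69-fold. Since mouse 1 gave a negative average, Usp24 fell outside the rule for named genes and was singled out after its values were seen.

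Of the other Usp genes higher in kidney, Usp36, a nucleolar protease, had the highest estimate. It read 0.84, 1.95 and 1.07 on the kidney arrays and 1.23, 1.26 and 1.20 on the liver arrays, in the order of the mice. Its 1.26 ± 0.16 was 2.39-fold (adjusted p = 0.000596; 0.00524 with the block) and held without mouse 2 (1.09). Usp3, which acts on ubiquitinated histones, gave 0.80 ± 0.14 (adjusted p = 0.00344; 0.0346 with the block), with all averages between 0.54 and 1.19. Usp20, an interactor of the von Hippel-Lindau protein, gave 0.76 ± 0.14 (adjusted p = 0.00463; 0.0342 with the block), with probes at 0.30 and 1.15. As deposited none of these 3 was called (Usp36 0.81, Usp3 0.35 and Usp20 0.31, with adjusted p-values of 0.0673, 0.278 and 0.359).

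Usp2, whose transcript is known to cycle with the circadian clock, depended more on mouse 2. It read 0.29, 2.22 and 0.30 on the kidney arrays and 1.12, 2.64 and 0.52 on the liver arrays. Its 1.18 ± 0.33 (adjusted p = 0.0273) became 0.56 without mouse 2 (adjusted p = 0.0176), 2.27-fold against 1.47-fold, and lost the call with the block (adjusted p = 0.073). Usp53, linked to tight junctions, gave 0.39 ± 0.13 (adjusted p = 0.0461; 0.213 with the block), between 0.17 and 0.70 in all averages, and -0.06 as deposited (adjusted p = 0.887). Usp15, a regulator of transforming growth factor beta receptors, gave 0.55 ± 0.18 (adjusted p = 0.0458), lost the call without mouse 2 (adjusted p = 0.129) and with the block (adjusted p = 0.16), and had probes at 1.53 and -0.44.

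On the liver side, Usp26, known from testis, read between -1.07 and -0.24 in all averages (-0.62 ± 0.15, adjusted p = 0.0137; 0.0825 with the mouse block). Usp35 gave -0.58 ± 0.19 (adjusted p = 0.0438), with -1.57 in mouse 3 on its kidney array and 0.04 on its liver arrays. It lost the call without mouse 2 (adjusted p = 0.0937) and with the block (adjusted p = 0.0859). Usp40 came out at 0.00 ± 0.28 with all mice, whose values opposed each other: mouse 2 read 0.96 and 1.14, mice 1 and 3 between -0.68 and -0.35, and without mouse 2 the gene was higher in liver (-0.53, adjusted p = 0.00907). With mouse 2 aligned it was not called (-0.22, adjusted p = 0.37). Usp16, which acts on histone H2A, was also higher in liver without mouse 2 (-0.49, adjusted p = 0.0202). It was not called with all mice (adjusted p = 0.0926) or with mouse 2 aligned (-0.33, adjusted p = 0.0786). The other Usp genes tested were not called with all mice and ranged from -0.39 (Usp50) to 0.64 (Usp10).

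**Figure D3:**
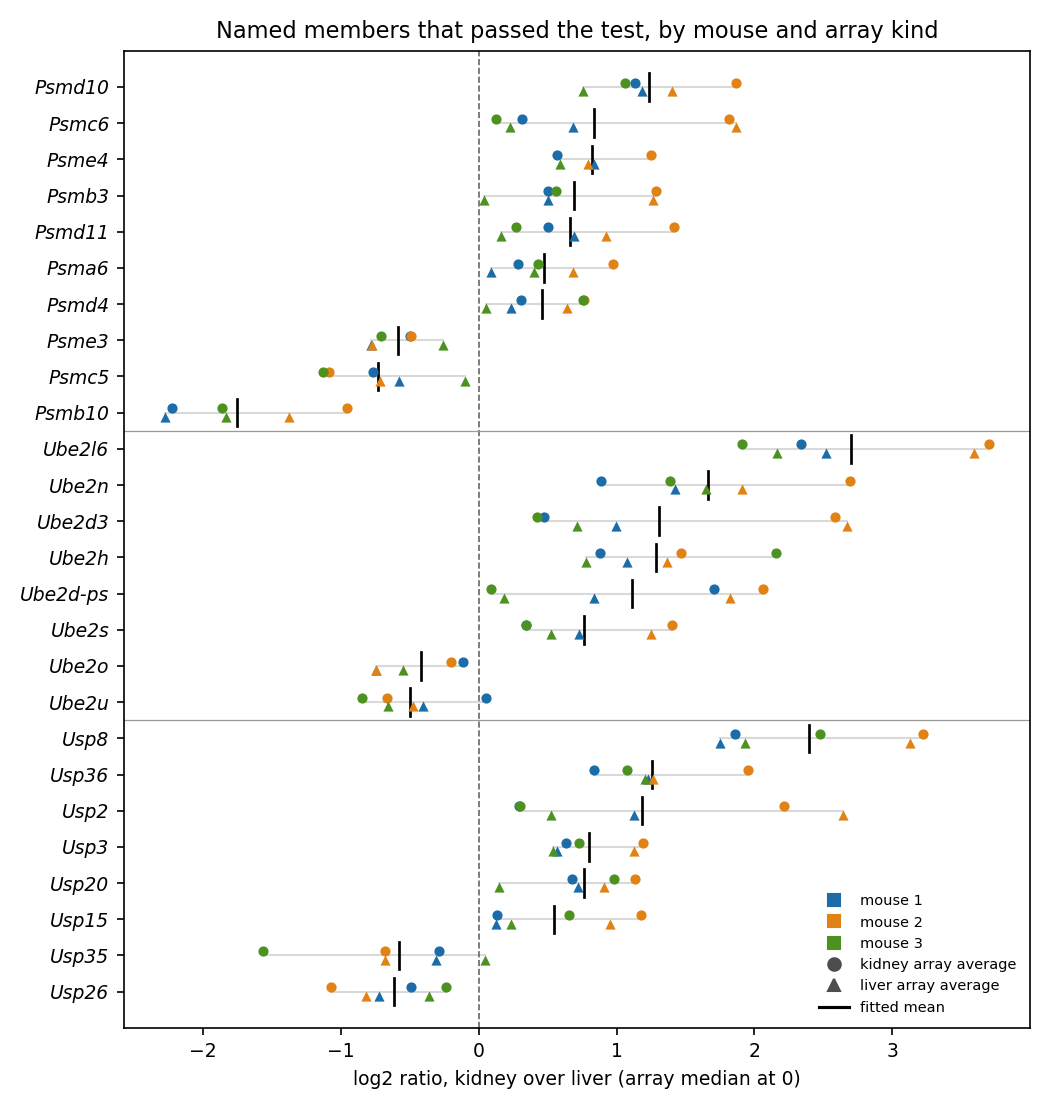
Log2 kidney over liver of the named members that passed the test, grouped from top to bottom into proteasome, Ube2 and Usp; circles are kidney array averages, triangles liver array averages, colours mice 1 to 3, and the black bar is the fitted mean. Ube2l6 (1.91 to 3.70) and Usp8 (1.75 to 3.22) lie farthest to the right, Psmb10 (-2.28 to -0.96) farthest to the left, and Usp35 in mouse 3 and Ube2u in mouse 1 each have an average just above 0.

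Kidney and liver arrays were read against different pools, but the same 3 mice supplied both. With a term for the array kind that does not pair the mice, 0 of the 93 members differed between the kinds in limma, and 1 did at an unadjusted p under 0.05, beside 0 and 135 of all 9047 genes. Paired within the mouse, 0 members differed and 9 did at an unadjusted p under 0.05 (lowest adjusted p = 0.611), beside 13 (0.145%) and 704 of 8984 genes. Ube2j1 lay lower on the kidney array than on the liver array of each mouse, by 0.52, 0.48 and 0.56 in mice 1, 2 and 3. Over the 79 members with all 6 averages, 22 were above 0 in each and 8 below 0 in each, beside 23.9% and 14.4% of 7514 genes. With kidney arrays alone 14.5% of all genes were called, and 5 proteasome, 5 Ube2 and 5 Usp members. With liver arrays alone 17.9% were called, and 4, 6 and 4 members.

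The spread between mice had a higher median in the proteasome and Ube2 groups than in the Usp group, a difference that was not tested. The median SD between mice, within an array kind, was 0.463 for the proteasome, 0.482 for Ube2, 0.347 for Usp and 0.367 for all genes, while the SD between hybridisations of one RNA was 0.208, 0.248, 0.257 and 0.252. For bright members, mouse 2 exceeded the mean of mice 1 and 3 by a median of 0.88 in the proteasome (9 genes), 1.10 in Ube2 (6 genes) and 1.41 in Usp (5 genes), beside 1.04 for all bright genes. For dim members the medians were -0.10, -0.05 and 0.06, beside -0.09. The excess of mouse 2 was thus higher in bright than in dim members, and the share of bright genes was 26.5%, 28.6% and 17.2% in the 3 groups and 17.3% over all genes.

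**Figure D4:**
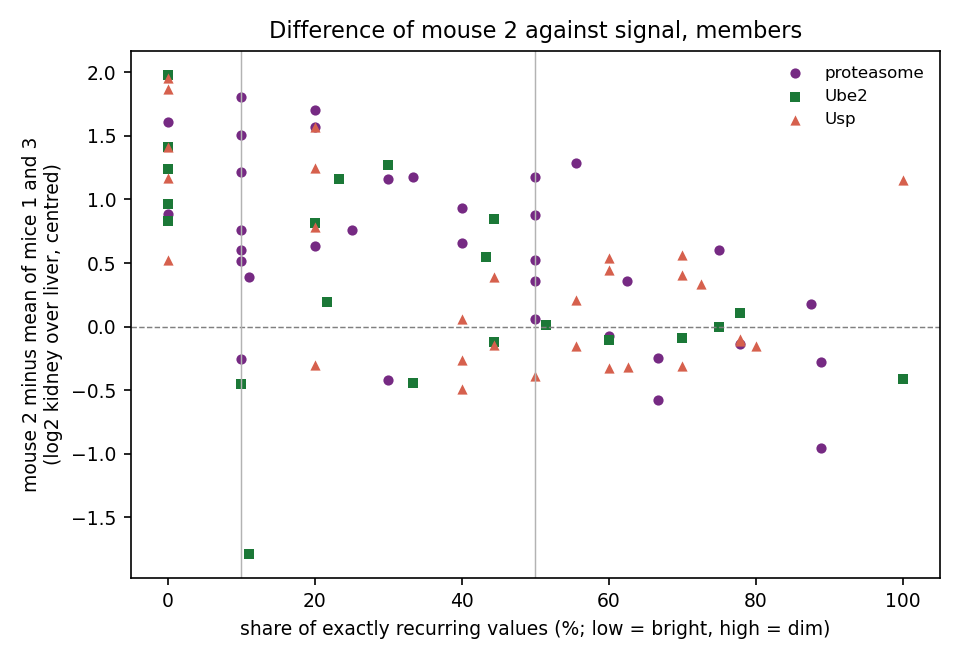
Difference of mouse 2 from the mean of mice 1 and 3 in log2 kidney over liver (vertical axis, centred arrays) against the share of a member's values that recur exactly on an array (horizontal axis, percent; low stands for bright probes), with vertical lines at the limits for bright and dim. Bright members have medians from 0.88 to 1.41 by group, and dim members from -0.10 to 0.06.

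Different probes of a member often disagreed. Of 16 members with several tested probes, 8 had probes with different signs, and 1 (Psmc1) had probes called in opposite directions, with a median range of 0.58 between the probes of a member. The widest gaps were in Ube2d-ps (2.02), Usp15 (1.97), Ube2h (1.93) and Psmd11 (1.58). In each of these 4, the probe with the larger value was called higher in kidney and the other was not called. Probes annotated to a member together with another gene were left out. Besides those of Psmb9 and Psmd2, the one for Vil1 and Usp37 read 1.83, and the one for Ahsa2 and Usp34 read 1.03, while Usp37 by its own probe was not called (0.16 ± 0.11).

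The rest of the pathway, given from lists of genes that are not members, was mixed as well. Of 4 ubiquitin-like modifiers tested, 3 were higher in kidney: Sumo2 (0.88), Nedd8 (0.80) and Ufm1 (0.36; 0.18 and not called with mouse 2 aligned). The 3 E1 enzymes tested had adjusted p-values of 0.0753 (Sae1, -0.37), 0.205 (Nae1, 0.30) and 0.38 (Uba6, 0.13). Of 12 deubiquitinases of other families, Otud5 was higher in kidney (0.44; 0.33 and not called without mouse 2, adjusted p = 0.0647), while Cops5, the COP9 subunit that strips NEDD8 from cullins, and Stambp, an endosomal protease, were higher in liver (-2.39 and -1.06). Of 12 assembly and shuttle genes, the transcription factor of proteasome genes Nfe2l1 was higher in kidney (0.59, adjusted p = 0.0328; 0.33 and not called without mouse 2), and the assembly chaperone Psmg2 was higher in liver (-0.41; -0.32 and not called without mouse 2). Of 27 E3 ligases, 3 were higher in kidney (Skp1 at 1.16, Traf6 at 0.46 and Stub1 at 0.38, the last not called with mouse 2 aligned) and 6 in liver, led by Cul7 (-3.44; -4.28 without mouse 2), Nedd4 (-3.37) and Cul5 (-1.09). As deposited, 0 genes of these lists were called higher in kidney, and 2 of the other deubiquitinases and 4 of the E3 ligases were called higher in liver.

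Members that could not be tested were Psmb11, a thymus-specific beta subunit, Psmd13, Ube2d2a, Ube2r2, Usp4, Usp5, Usp31 and Usp39, which had values in fewer than 2 mice on an array kind. Among them the measured averages lay between -1.40 and 0.75.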

How the data were processed

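RNA (20 µg of total RNA per labelling) was measured on 16 two-colour cDNA arrays of 20419 probes. Per the labels' protocols, a GenePix 4000A scanner and GenePix Pro 3.0 gave mean intensities minus local background, and the authors scaled ratios to a median of 1. The deposited values are log2 ratios. The base was read from the values: of 144 spacings from the most frequent value, 140 were log2 ratios of small integers (10 or less, tolerance 0.0001); read as natural logarithms 0 were, and as log10 16. The dye of each sample and raw intensities were not used here. Between 15480 and 19432 probes had a value on an array. Arrays of one RNA were averaged, so the number of mice, 3, limits the precision.

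Values were turned to kidney over liver (minus the value on kidney arrays), and each array was centred on its median, since the labels state a median ratio of 1. Of the probes, 11723 had 1 symbol (11590 matched RefSeq), 806 several and 7890 none. Probes of a symbol were averaged. The 6 averages were fitted with limma 3.58.1 (R 4.3.3), with the array kind coded symmetrically so that the intercept is the mean of both kinds, on genes with values in at least 2 mice on each kind, with two-sided p-values adjusted over 9047 genes by Benjamini-Hochberg. Fold is 2 to the power of the absolute log2 estimate. Bright probes had at most 10% exactly recurring values over at least 8 arrays of mice 1 and 3 (2967 probes), dim probes over 50% (7126 probes). This share comes from the same ratios that are tested.

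Alternatives were the values as deposited, centring on bright probes, scaling to one spread (by median absolute value), a replicate block, leaving out each mouse, each array kind alone, genes with a value on all 16 arrays, bright probes alone, trended robust variances and single probes. Aligning mouse 2 by signal within 7 bins, and a test of the array kinds within the mouse, were added after seeing the data. Mouse numbers mark the same animal in both organs, per the labels. As sample over pool, deviations of its kidney and liver averages correlated at -0.568, -0.787 and -0.566 for mice 1, 2 and 3 across 7514 genes, which are not independent replicates, and these are positive as kidney over liver. The pools give no estimate of spread. The fit was also run on simulated data drawn as independent averages. That run cannot show how the SE and p-values behave when the averages of a mouse deviate together, as they do here.

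The symbol rule uses no measured value, but it and the lists were proposed with earlier results of these data known. Named were, in each group and direction, the 6 called members that differed most among those of one sign in all 6 averages, the interferon-inducible proteasome genes with their partners, called members that oppose their role subgroup, members with opposed probes, and in other lists the 3 called genes that differed most in either direction. This gave 33 named members, 26 of them called. Other members and list genes were named after their values were seen. Figures were drawn with matplotlib 3.10.9.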

Additional observations from a re-analysis of the deposited data

Results flagged for a closer look

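Among the named members, 66 groups of 4 to 10 arrays of one array kind were examined for a single array far from the others, and 3 had one. Chance flags about 1 in 20 such groups where the arrays are independent, which arrays of one mouse are not. On the liver arrays, one hybridisation of mouse 2 gave 1.82 for Psmb8, while the other arrays lay between -0.70 and 0.53 (n = 9 arrays). For Ube2d-ps, the kidney array of mouse 3 gave 0.0857, while the other kidney arrays lay between 1.66 and 2.52 (n = 7). The liver arrays of mouse 3 lay between 0.10 and 0.32 for this symbol, so mouse 3 read near 0 on both array kinds. For Ube2o, one liver hybridisation of mouse 3 gave -0.276, while the others lay between -0.84 and -0.60 (n = 9). Arrays of one mouse share their RNA, so these groups hold 3 animals each.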

How the results depend on the processing

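Of 26 called named members, 4 (Psmb10, Ube2l6, Ube2n and Usp8) stayed called in the same direction in all 14 alternatives. As deposited, without centring, 1283 genes were called in place of 2873, with 5 in place of 13 proteasome, 4 in place of 10 Ube2 and 2 in place of 10 Usp members, and medians of -0.22, -0.44 and -0.32. With the replicate block on the mouse number, 1511 genes were called, with 4 proteasome, 3 Ube2 and 5 Usp members; it ended 21 of the 33 calls among members and added none. Paired within the mouse, 13 genes in place of 0 differed between the array kinds, none of them a member. Leaving out each mouse in turn gave between 1191 and 2718 genes, between 2 and 10 proteasome, between 3 and 8 Ube2 and between 4 and 9 Usp members, fewest without mouse 1. These fits test fewer genes on 4 averages. With kidney arrays alone 1316 genes and 5, 5 and 5 members were called, and with liver arrays alone 1670 genes and 4, 6 and 4 members. With bright probes alone 1171 genes were called, with 6 proteasome and 5 Usp members and medians of 0.64, 1.49 and 1.22 for proteasome, Ube2 and Usp, on fewer genes. Genes with a value on all 16 arrays had medians of 0.54 for Ube2 and 0.36 for Usp. Fitted on single probes, 5445 probes were called, and the first probe of Psmc1 gave -0.56. With arrays centred on bright probes the medians were -0.33, -0.56 and -0.44, and Psma6 (-0.092), Psmd4 (-0.11) and Usp15 (-0.027) changed sign; the kidney side then held 16.7%, 37.5% and 33.3% of the proteasome, Ube2 and Usp calls and 18.4% of all calls. The cause of these changes was not tested. Aligning mouse 2 by signal ended 1 of the 26 calls, Ube2o. By their recurring values, 10 of 34 proteasome, 6 of 21 Ube2 and 14 of 29 Usp members counted as dim. How far a low signal over background limits their precision was not tested, since raw intensities were not used.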
